A study of Coturnix japonica with 15 samples.

Results

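A set of 42 gene loci that carry no gene name was raised in the liver of Japanese quail (Coturnix japonica) embryos whose eggs had received ethinylestradiol, a synthetic oestrogen. Tissue of the left liver lobe was taken at embryonic day 9, and its total RNA was sequenced. The eggs had been injected in the air cell, before incubation, with 10 µl of the solvent DMSO, or with ethinylestradiol at 3.33 or 33.3 µg per g of egg weight. Incubation was at 37 °C and 60% humidity in all groups. Each of the 3 groups held 5 libraries, and the labels give no sex and do not state that every library is its own embryo, so p-values measure only the spread between these libraries, which may be technical. The whole table held 20308 gene IDs, of which 7336 had no symbol or only a locus (LOC) number in the gene table of the quail reference. The loci were selected on measured expression. A locus was taken when its mean over the 10 treated libraries was at least 0.5 CPM (counts scaled so that every library has the same total). Both dose means had also to be at least 2 times the solvent mean, with at least 4 of the 5 libraries of each dose above the highest solvent library. The choice therefore rests on the rise over solvent itself, and every comparison of these loci with solvent is a description without a test.

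A LOC number is a placeholder that the NCBI annotation gives to a gene model for which no gene symbol has been assigned. In egg-laying vertebrates the liver responds to oestrogen, through nuclear oestrogen receptors that bind DNA, by making yolk proteins such as vitellogenins and the apolipoproteins of yolk-targeted lipoproteins. In birds this response is known from laying females and can be brought on by oestrogen in males and embryos. The gene table used here gives a symbol, a transcript class and RefSeq record numbers, but no product name. No product is therefore given for any of the 42 loci. Of the 42, 26 were protein-coding models, 13 were long non-coding RNA models and 3 had no entry in the table, which were the IDs 107316991, 107314319 and 107308991. Among all 2676 unnamed IDs at the same treated level, 1665 were protein-coding and 606 were long non-coding. LOC107319112 was the 1 member with an NM record (a curated RefSeq transcript), and the other 38 members in the table had none. Other kinds of curated record were not looked for. Of the 2676 unnamed IDs at that level 1.57% met the rule, and of the 11157 IDs with a symbol 92 met it (0.825%).

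Library totals ran from 21715273 to 54591426 estimated counts, and RNA of the hepatocyte marker ALB (albumin) stood at 48470.2 to 133019 CPM in all 15 libraries. The lowest ALB levels were in 3.33 µg/g replicate 4 and 33.3 µg/g replicate 1 (58747 CPM). The 4 measured markers of exocrine pancreas summed to at most 0.105 CPM in any library. No tested marker of red blood cells, endothelium, mesenchyme, bile duct, mesonephros, gonad, neurons or skeletal muscle differed from solvent at either dose in edgeR (adjusted p of at least 0.05), whereas 1 of 7 macrophage markers did at 3.33 µg/g. Several of these lists were poorly covered. Tested were 3 of 13 listed red blood cell markers (TAL1, SLC4A1 and EPB42), 3 of 5 for bile duct, 2 of 6 for mesonephros and 2 of 6 for skeletal muscle. Of the 6 measured gonad markers 2 were tested. Their sum was 2.75 to 5.01 CPM with solvent, 3.24 to 51.8 CPM at 3.33 µg/g and 3.11 to 14.0 CPM at 33.3 µg/g. Most of it was SOX9, at 1.53 to 50.5 CPM over the 15 libraries, a gene that is also on the bile duct list. DDX4, DAZL, AMH, NR5A1 and FOXL2 each stayed at or below 1.17 CPM. The part of these values in the results was not tested. Of 9 tested hepatocyte markers 2 passed at 33.3 µg/g and 1 at 3.33 µg/g. The lipoprotein gene APOB, also in the oestrogen and yolk list below, was among them at 33.3 µg/g and was the one at 3.33 µg/g. APOB and AHSG averaged higher at both doses than with solvent. ALB, APOA1, FGA, FGB, SERPINC1, AMBP and HNF4A averaged lower at both. In bulk tissue, a change in the number of cells of a type and a change in RNA per cell cannot be told apart.

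The 42 loci together took at most 0.0608% of the estimated counts of a solvent library and 0.726% to 5.34% of those of a treated library. They took 0.0115%, 0.0173%, 0.0608%, 0.00994% and 0.0115% of the counts in solvent replicates 1 to 5. At 3.33 µg/g they took 1.78%, 4.24%, 5.34%, 4.24% and 1.76%, and at 33.3 µg/g 4.17%, 3.64%, 1.46%, 0.726% and 3.92%. The treated libraries all lay far above the solvent libraries, and within each dose the highest library was several times the lowest. The 95% Wilson interval of each share was at most 0.00928 percentage points to either side, for counting error only. Most of this share came from LOC107317565, LOC107319873 and LOC107317352, which together took 0.673% to 5.09% of the counts of a treated library. The other 39 loci summed to 113 ± 20.6 CPM with solvent, 1632 ± 733 CPM at 3.33 µg/g and 2155 ± 1199 CPM at 33.3 µg/g (SD, n = 5). For comparison, the 92 IDs with a symbol that met the same rule, led by the lipoprotein gene APOB, took 0.769% ± 0.0800 of the counts with solvent, 2.70% ± 0.584 at 3.33 µg/g and 2.24% ± 0.176 at 33.3 µg/g (SD, n = 5). Of the 42 loci, 8 to 15 reached 1 CPM in a solvent library and 30 to 38 did in a treated library.

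**Figure D1:**
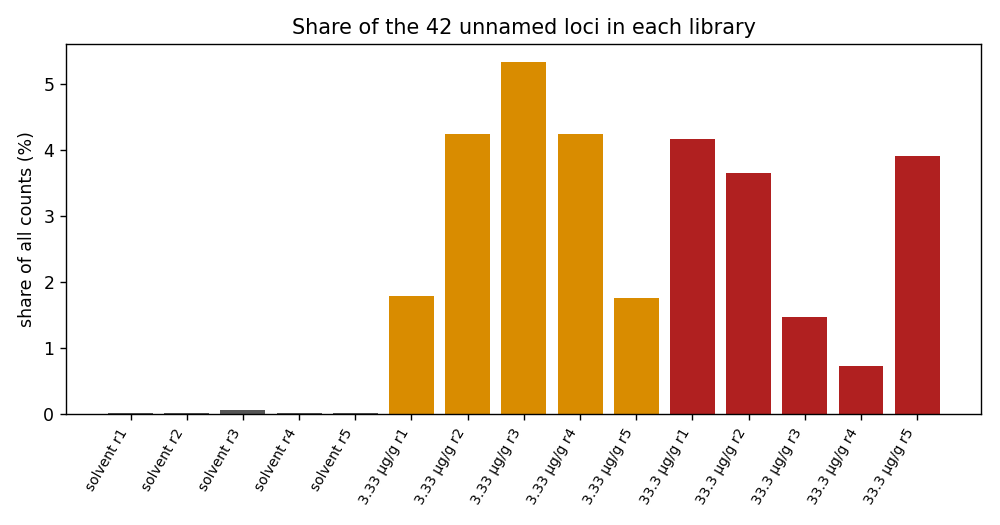
Share of all estimated counts taken by the 42 loci (vertical axis, percent) in each of the 15 libraries, with bars for solvent (grey), 3.33 µg/g (orange) and 33.3 µg/g (red) and r for replicate. The solvent bars are at or below 0.0608%, and the treated bars run from 0.726% in 33.3 µg/g replicate 4 to 5.34% in 3.33 µg/g replicate 3.

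At 7 loci the mean of the treated libraries was more than 100 times the solvent mean. LOC107317565, a protein-coding model on chromosome 8 of the reference, stood at 13.5, 16.4, 230.0, 1.09 and 1.9 CPM in solvent replicates 1 to 5. Its 3.33 µg/g libraries held 8499, 21029, 24244, 17649.6 and 7115 CPM, and its 33.3 µg/g libraries 19152, 16857, 5517, 2324 and 14376 CPM. No treated library fell among the solvent libraries, and solvent replicate 3 was more than 10 times any other solvent library. The means were 52.6 ± 99.4 CPM with solvent, 15708 ± 7595 CPM at 3.33 µg/g and 11645 ± 7339 CPM at 33.3 µg/g, which is 299 and 221 times the solvent mean. Without solvent replicate 3 these ratios were 1907 and 1414.

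LOC107319873, a protein-coding model on chromosome 1, was of the same order as LOC107317565 under treatment. It held 11.6, 13.9, 189, 0.337 and 0.372 CPM in the solvent libraries. Treated libraries held 6748, 14453, 21334, 19113 and 7791 CPM at 3.33 µg/g and 17553, 11481, 5579.6, 3658 and 16723 CPM at 33.3 µg/g. The order of libraries was close to that of LOC107317565, with solvent replicate 3 the highest of its group and 33.3 µg/g replicate 4 the lowest treated library. The dose means were 323 and 255 times the solvent mean, or 2114 and 1674 times without solvent replicate 3. LOC107317352, the protein-coding model next to LOC107317565 on chromosome 8, held 2.43, 4.57, 61.9, 0.168 and 0.223 CPM with solvent. Its libraries at 3.33 µg/g held 1765, 5253, 5289, 3462 and 1644 CPM and those at 33.3 µg/g 2736, 4712, 2128, 748 and 4918 CPM. All treated libraries exceeded all solvent libraries, by 251 and 220.1 times on the means and by 1885 and 1650.3 times without solvent replicate 3. CPM is not divided by transcript length, so the levels of different loci are not ranked as amounts of RNA molecules.

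The other 4 loci of this class were nearly silent with solvent. LOC107314278, protein-coding on chromosome 1, held 0.28, 0.666, 4.97, 0.0421 and 0 CPM in the solvent libraries. Under treatment it held 328, 789, 589, 887 and 216 CPM at 3.33 µg/g and 745, 794, 364, 97.1 and 661 CPM at 33.3 µg/g. The lowest treated library was again 33.3 µg/g replicate 4, still more than 10 times the highest solvent library. The dose means were 472 and 446 times the solvent mean, or 2276 and 2155 times without solvent replicate 3. The latter ratios rest on 25 counts in the other solvent libraries. LOC107317574, protein-coding on chromosome 8, went from 0.685, 0.311, 1.89, 0 and 0.335 CPM with solvent to 45.3, 295, 806, 309.6 and 94.2 CPM at 3.33 µg/g and 403, 1124, 346, 29 and 1341 CPM at 33.3 µg/g. Its treated libraries spread more widely than those of the loci above, with 33.3 µg/g replicate 4 at 29 CPM and replicate 5 of the same dose at 1341 CPM. The means rose 482 and 1008 times over solvent, or 932 and 1951 times with solvent replicate 3 left out, on 38 remaining solvent counts.

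LOC107319112, the locus with the NM record, lies on chromosome 11 and held 0.218, 0.399, 2.95, 0.126 and 0.0372 CPM with solvent. It held 102, 153, 455, 409 and 314 CPM at 3.33 µg/g and 167, 464, 272, 161 and 431 CPM at 33.3 µg/g. The lowest treated library was more than 30 times the highest solvent library, and the means were 385 and 401 times that of solvent. Leaving out solvent replicate 3 made this 1469 and 1532 times, on 20 remaining solvent counts. LOC107310248, protein-coding on chromosome 1, held 0.187, 0, 0.736, 0 and 0 CPM with solvent, which is 0 counts in 3 of the 5 libraries. It held 4.75, 102, 196, 70.4 and 17.7 CPM at 3.33 µg/g and 86.3, 163, 21.3, 11.5 and 83.4 CPM at 33.3 µg/g. Again no treated library fell among the solvent libraries, and the dose means were 423 and 396 times the solvent mean. That mean rests on 22 counts, and on the 6 counts outside solvent replicate 3 the ratios were 1673 and 1567.

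Solvent replicate 3 was the highest solvent library at all 7 of these loci. As a share of each locus's treated mean it held 0.394% to 1.89%, with a median of 1.01%. Solvent replicate 1 held 0.0512% to 0.247%, replicate 2 0% to 0.14%, replicate 4 0% to 0.0431% and replicate 5 0% to 0.0699%. Thus replicates 1 and 2 were intermediate at most of these loci, and replicates 4 and 5 were lowest at most of them. The egg coat gene ZP1, which has a symbol, stood at 43.6 CPM in solvent replicate 3 and between 1.46 and 3.05 CPM in the rest of the group. Over all 42 loci solvent replicate 3 was the highest of its group at 15, and over the 92 IDs with a symbol that met the rule at 28. Over the 13830 IDs at the same treated level with any solvent count it was highest at 21.8%. In that library the 3 measured biliary markers summed to 227 CPM, where the rest of its group had 111 to 166 CPM. The 3 skeletal muscle markers summed to 5.43 CPM, where the rest had 0.932 to 2.81 CPM. The mesenchymal sum was 2231 CPM (1360.4 to 2009 in the rest) and the hepatocyte sum 159931 CPM (129287 to 151556), both highest, and the erythroid sum was lowest at 87.3 CPM (93.5 to 161). The other marker sums lay within the range of the rest. Their part in the result was not tested.

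**Figure D2:**
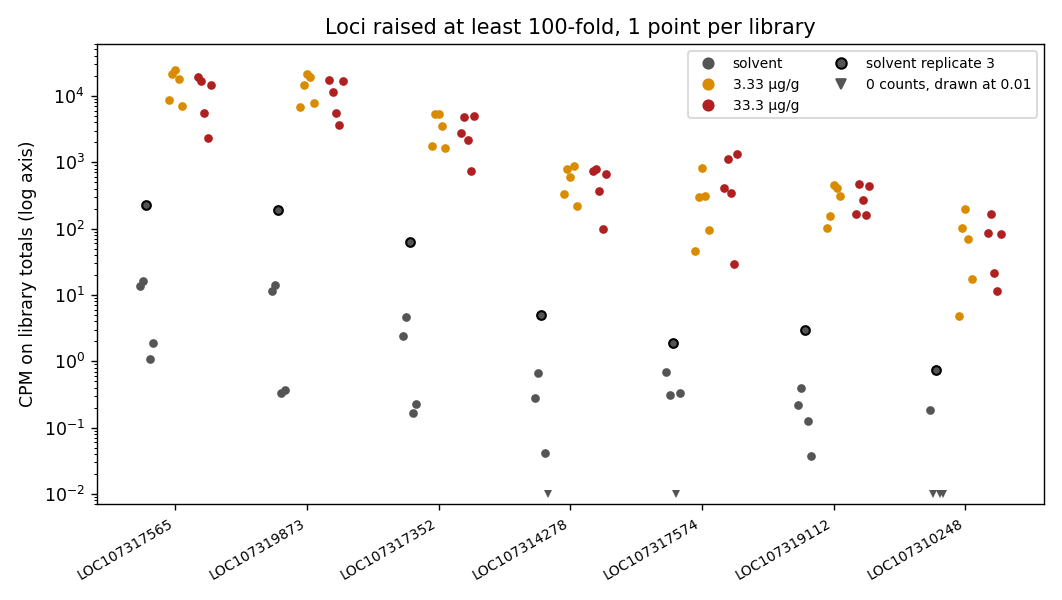
Level of the 7 loci whose treated mean was more than 100 times the solvent mean (vertical axis, CPM on library totals, log scale), with 1 point per library for solvent (grey), 3.33 µg/g (orange) and 33.3 µg/g (red). Solvent replicate 3 (black outline) is the highest solvent point at each locus, and no treated point falls among the solvent points.

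Some members had a clear level with solvent already. LOC107320451, protein-coding on chromosome 13, held 25.4, 77.1, 64.2, 57.1 and 71 CPM with solvent. It held 147, 29.2, 130.0, 211 and 150.0 CPM at 3.33 µg/g, where replicate 2 lay within the solvent range, and 558, 450.0, 172, 80.5 and 338 CPM at 33.3 µg/g. The means were 2.26 and 5.43 times the solvent mean of 58.9 ± 20.2 CPM. LOC107314438, protein-coding on chromosome 5, held 40.4, 25.4, 18.9, 13.8 and 15.4 CPM with solvent. It held 35.7, 127, 127, 55.4 and 46.1 CPM at 3.33 µg/g and 86.2, 52.1, 47.4, 44.5 and 48.2 CPM at 33.3 µg/g. Solvent replicate 1, at 40.4 CPM, was above 3.33 µg/g replicate 1, at 35.7 CPM, so the groups overlapped. LOC107321855, a long non-coding model on chromosome 17, held 8.4, 12.2, 12.1, 10.6 and 8.86 CPM under solvent, 31.5, 16.9, 17.7, 30.1 and 44.1 CPM at 3.33 µg/g and 43.5, 13.6, 9.29, 39.6 and 15 CPM at 33.3 µg/g. Here 33.3 µg/g replicate 3, at 9.29 CPM, lay within the solvent range.

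LOC107312296, protein-coding on chromosome 3, held 0.529, 3.77, 1.29, 0.884 and 1.15 CPM under solvent, 13.2, 58.4, 54.5, 28.2 and 25.5 CPM at 3.33 µg/g and 16.8, 34.8, 14.1, 5.84 and 72.3 CPM at 33.3 µg/g. Its treated libraries were all above its solvent libraries, of which replicate 2 was the highest. LOC107317492, protein-coding on chromosome 8, held 0.124, 0.355, 0.368, 0 and 0.223 CPM under solvent, 15.5, 10.3, 11.2, 15 and 10.1 CPM at 3.33 µg/g and 44, 38, 6.15, 3.57 and 30.6 CPM at 33.3 µg/g. Its dose means were 58 and 114 times the solvent mean. LOC107305801, on chromosome Z, a sex chromosome in birds, averaged 1.7 ± 0.561 CPM, 12.9 ± 7.55 CPM and 18.8 ± 15 CPM in the same order of groups. No other member was placed on chromosome Z.

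The remaining members were at low levels. Of the 42, 7 averaged at least 100 CPM over the treated libraries, 8 averaged 10 to 100, 21 averaged 1 to 10 and 6 averaged under 1 CPM. With solvent 30 of the 42 averaged under 1 CPM. The ratio of the treated to the solvent mean was at least 100 at 7 loci, 10 to 100 at 16 and under 10 at 19. LOC107309483, a long non-coding model on chromosome 2, was the 1 member with 0 counts in all solvent libraries. It held 1.92, 0.0271, 0.0444, 0.0453 and 2.13 CPM at 3.33 µg/g and 2.78, 3.61, 0.0314, 1.71 and 4.14 CPM at 33.3 µg/g, so 4 treated libraries were nearly empty and 6 were not. With 3 counts over the solvent group (0.0236 CPM) as the floor, the lower dose mean was at least 35.2-fold higher and the higher dose mean at least 104-fold higher. LOC107323147 and LOC107317575 each had 1 count in the solvent group, against 115 and 51 counts at 3.33 µg/g and 142 and 121 at 33.3 µg/g. LOC107323197, protein-coding on chromosome 20, had 2 counts in the solvent group and a treated mean of 1.38 CPM.

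**Figure D3:**
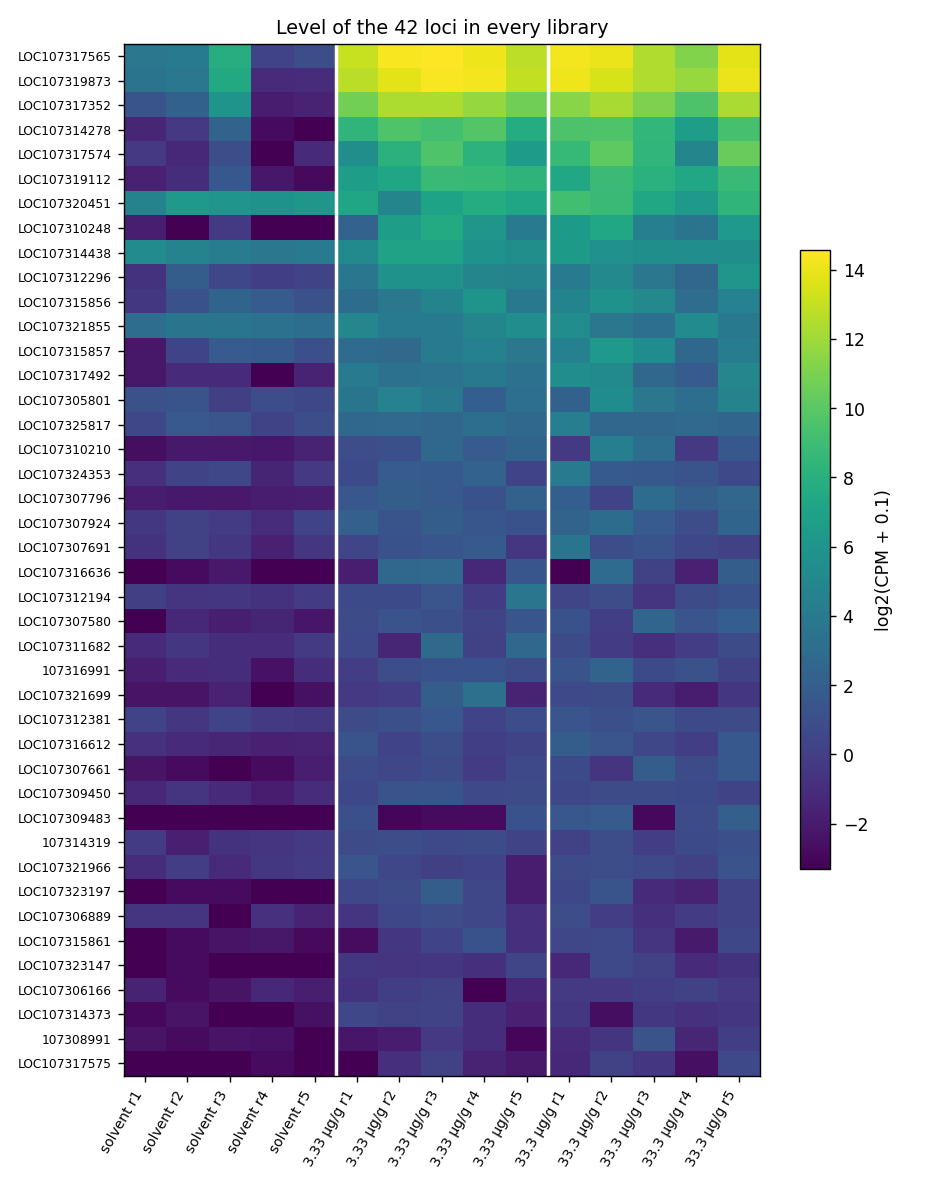
Level of each of the 42 loci (rows, ordered by treated mean) in each of the 15 libraries (columns, r for replicate), coloured by log2(CPM + 0.1). The upper rows change from dark to bright between solvent and both doses, LOC107320451 and LOC107314438 are already at a middle level with solvent, and LOC107309483 is dark in 3.33 µg/g replicates 2, 3 and 4 and in 33.3 µg/g replicate 3.

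Under treatment the loci did not all rise and fall together from library to library. Over the 861 pairs of members, the median Pearson correlation of log2(CPM + 0.5) across the 10 treated libraries was 0.177, and 293 pairs were below 0. These are descriptions without a test, over libraries of both doses, which differ in depth. The 10 pairs above 0.9 fell into a few sets. LOC107317565 tracked LOC107319873 (r = 0.949, Spearman's rho = 0.879), LOC107314278 (0.93, rho = 0.685) and LOC107317352 (0.918, rho = 0.842), and LOC107317352 tracked LOC107312296 (0.915, rho = 0.879). Against LOC107317565, the CPM ratio of LOC107319873 stayed between 0.681 and 1.57 over the 10 libraries and that of LOC107317352 between 0.143 and 0.386. By contrast, the ratio of LOC107317574 to LOC107317565 ran from 0.00533 to 0.0933. In this set 33.3 µg/g replicate 4 was the lowest treated library, and that library was lowest at 12 of the 42 loci and highest at 0. The 12 include the loci of this set, and no share over all IDs is given, so nothing is read from these counts.

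A separate set was LOC107307796, LOC107307580 and LOC107307661, protein-coding models that the reference places on no chromosome. In each treated library LOC107307580 stood at 0.531 to 0.82 and LOC107307661 at 0.315 to 0.581 of the level of LOC107307796. By rank LOC107307661 followed less closely, with LOC107307796 (r = 0.926, rho = 0.661) and with LOC107307580 (r = 0.95, rho = 0.636). LOC107307796 held 0.156, 0.133, 0.138, 0.168 and 0.186 CPM under solvent, 2.83, 3.68, 3.28, 2.22 and 4.5 CPM at 3.33 µg/g and 4.06, 1.12, 7.72, 4.16 and 5.85 CPM at 33.3 µg/g. All 3 of these loci were highest in 33.3 µg/g replicate 3, a library in which LOC107317565 and LOC107319873 lay below their dose means. Another pair, LOC107324353 on chromosome 25 and the unplaced long non-coding LOC107307691, had the highest Pearson correlation of any pair (r = 0.984, rho = 0.903). By rank, LOC107307796 with LOC107307580 came highest (rho = 0.988). LOC107324353 stood at 16.5 CPM and LOC107307691 at 12.5 CPM in 33.3 µg/g replicate 1, against at most 4.89 and 3.26 CPM in any other treated library. That library was 1 of the 2 with low ALB, and any part of this in the pattern was not tested. Kallisto shares reads among similar transcripts. The estimated counts of LOC107307796, LOC107307580, LOC107307661, LOC107324353 and LOC107307691 were whole numbers in all 15 libraries. Whether any of these models are copies or pieces of the same gene was not tested.

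Likeness to APOB, whose product forms the backbone of yolk-targeted lipoproteins, was described over the same 10 libraries. By rank it was highest for LOC107317352 (r = 0.699, rho = 0.891), followed by LOC107323197 (r = 0.697, rho = 0.842) and LOC107317565 (r = 0.663, rho = 0.83). Leaving out the 2 libraries farthest from the median APOB level gave r = 0.686, 0.791 and 0.666. For LOC107319112 r was 0.0412 (rho = 0.248) and 0.352 without those 2, and for LOC107321855 r was −0.353 (rho = −0.455) and −0.273. For LOC107320451 r was −0.536 over 10 libraries and 0.396 without those 2. In all, r changed sign this way at 8 of the 42 loci, so at these its sign rested on those libraries.

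Position in the genome was not part of the rule. The reference places 34 of the 42 loci on a chromosome or linkage group, and 17 of the 34 had another ID that met the rule, with or without a symbol, within 5 genes to either side. The same held for 4.28% of 1867 other placed unnamed IDs at the same treated level and for 5.27% of 12644 placed IDs of any kind at that level that did not meet the rule. The share among the 92 IDs with a symbol that met the rule is not given, so this is not read as particular to unnamed loci. Of the 17 loci, 9 had another member within 5 genes and 10 had a gene with a symbol that met the rule. Members near each other were each counted, and 3 of the 17 overlapped the span of such a neighbour. The 17 are therefore not independent cases, and any part of shared reads in this share was not tested. The gene order is that of the Coturnix japonica 2.1 assembly. The build used for the deposited counts is not known, so no positions are given.

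On chromosome 8, LOC107317565 and LOC107317352 lie next to each other. SSX2IP precedes them (1.55 ± 0.4 CPM with solvent, 3.92 ± 1.5 CPM at 3.33 µg/g and 3.76 ± 0.579 CPM at 33.3 µg/g), and SPATA1 follows 2 genes after LOC107317352 (2.02 ± 0.731, 44.4 ± 14.4 and 49.7 ± 21.4 CPM). Between LOC107317352 and SPATA1 lies CTBS, which did not meet the rule (28.1 CPM with solvent, 31.3 at 3.33 µg/g and 43.0 at 33.3 µg/g on average). Elsewhere on chromosome 8, LOC107317574 adjoins the long non-coding LOC107317575, and these followed each other across the treated libraries (r = 0.923, rho = 0.927). Their flanking genes ADGRL4 and PTGFR did not meet the rule, with means of 14.6 and 0.34 CPM (solvent) and of 14.4 and 0.244 CPM (33.3 µg/g).

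LOC107314278 lies among NPTXR, DNAL4 and SUN2 on chromosome 1. NPTXR, a neuronal pentraxin receptor, averaged 1.3 ± 0.531 CPM with solvent, 208 ± 170 CPM at 3.33 µg/g and 102 ± 81.9 CPM at 33.3 µg/g. DNAL4, a dynein light chain, and SUN2, a protein of the nuclear envelope, had solvent means of 11.8 and 19.6 CPM, 3.33 µg/g means of 30.8 and 78.6 CPM and 33.3 µg/g means of 24.5 and 73.3 CPM. The next gene beyond SUN2, GTPBP1, had means of 67.4 CPM (solvent), 68.7 CPM (3.33 µg/g) and 65.0 CPM (33.3 µg/g). On chromosome 6, LOC107315856, LOC107315857, LOC107315860 and the long non-coding LOC107315861 follow each other without a gap. The estimated counts of LOC107315856 and LOC107315857 were not whole numbers (55.4873 and 53.5127 in solvent replicate 5). Kallisto divides reads among similar transcripts, so the levels of these 2 models may not be separate, which was not tested. LOC107315856 held 0.653, 2.19, 5.21, 3.47 and 2.07 CPM under solvent, 8, 14.5, 27.3, 60.2 and 15.2 CPM at 3.33 µg/g and 27.4, 59.2, 33.5, 8.45 and 24.5 CPM at 33.3 µg/g. No treated library was as low as the highest solvent library, and LOC107315857 averaged 1.96 ± 1.39 CPM, 13.7 ± 6.59 CPM and 34.6 ± 29.8 CPM. LOC107315860 averaged 0.603, 2.62 and 4.23 CPM and missed the rule because 3 of 5 libraries at 3.33 µg/g exceeded the highest solvent library.

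In 3 cases the gene span of a member overlapped that of an adjacent gene that met the rule. These were LOC107310248 with the chloride channel gene BEST3 (0 CPM with solvent, 2.18 and 2.3 CPM at the doses), LOC107319112 with DRC7 (2.18, 16.3 and 21.1 CPM) and LOC107309450 with MOCOS, a molybdenum cofactor enzyme (57.9, 240 and 182 CPM). Whether the library preparation kept strand is not given in the sources used here, so reads of overlapping transcripts may not be told apart. LOC107314373, long non-coding on chromosome 5, adjoins the potassium channel gene KCNA4 (0.876, 15.3 and 8.34 CPM). LOC107312381 lies within 5 genes of both GAREM2 and KIF3C, and LOC107321855 lies 4 genes from AGPAT2, which makes phosphatidic acid. LOC107319873 had no such neighbour: of its 10 nearest genes the largest change in mean was at ILDR1, from 33.3 CPM with solvent to 56.0 CPM at 3.33 µg/g and 47.7 CPM at 33.3 µg/g.

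**Figure D4:**
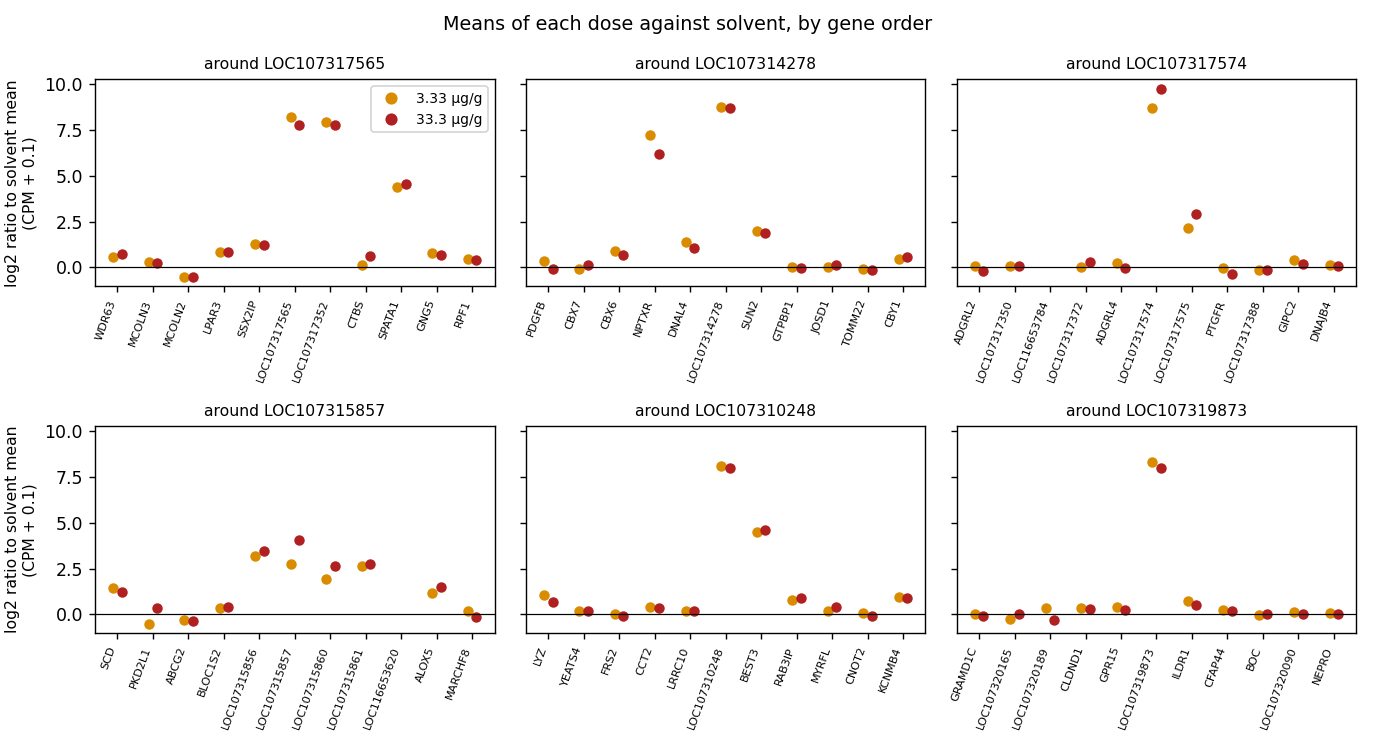
Log2 ratio of the mean of each dose to the solvent mean, with 0.1 CPM added to each (vertical axis), for 6 members and the 5 genes to either side in gene order (horizontal axis), at 3.33 µg/g (orange) and 33.3 µg/g (red); a gene with no entry in the deposited table has no point. High points stand beside low ones: LOC107317565 and LOC107317352 are high with CTBS low beside them, the rise around LOC107314278 ends after SUN2, and LOC107319873 stands alone.

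The difference between the doses was not used to choose the loci and was tested. In edgeR none of the 42 differed between 33.3 and 3.33 µg/g after adjustment over the 14508 genes tested, the lowest adjusted p being 0.86, and 0.0% of all tested genes passed. An unadjusted p under 0.05 was reached by 5 of the 42 and by 805 of all genes (5.55%). DESeq2 called 0 of the 42 and 19 genes in all (0.131%). The libraries of the doses overlapped at all 42 loci, while at 0.557% of all 13833 IDs at that level they did not. All 42 passed the filter on low counts, and their median log2 fold change was 0.34 at 33.3 against 3.33 µg/g (27 above 0 and 15 below), beside −0.00 over all tested genes. That median was 0.04 without 33.3 µg/g replicate 2.

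The intervals of these differences, approximated from the F statistic of the test, were wide. For LOC107317565 the log2 fold change was −0.37 (SE 1.03, 95% interval −2.56 to 1.82), and for LOC107314278 it was 0.01 (SE 0.70, −1.48 to 1.51). Both intervals therefore include a doubling and a halving between the doses. The narrowest was that of LOC107309450, at −0.20 (95% interval −0.76 to 0.36). The 5 loci with the smallest p went both ways. LOC107320451 averaged 319.9 ± 196 CPM at 33.3 µg/g and 133 ± 65.7 CPM at the lower dose (a log2 difference of 1.31, SE 0.49, adjusted p = 0.86 in edgeR). The ID 107308991 had 1.88 (SE 0.71, adjusted p = 0.86), and LOC107315857 had 1.46 (SE 0.63, adjusted p = 0.877).

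Of those 5, LOC107311682 and the long non-coding LOC107312194 had lower means at the higher dose. LOC107311682, protein-coding on chromosome 3, held 1.46, 0.271, 7.32, 1.04 and 6.16 CPM at 3.33 µg/g and 1.64, 0.788, 0.471, 0.84 and 1.7 CPM at the higher dose (a log2 change of −1.57, adjusted p = 0.877 in edgeR). LOC107312194 held 1.54, 1.49, 2.53, 0.815 and 12.8 CPM and 1.25, 1.81, 0.565, 1.64 and 2.16 CPM (log2 fold change −1.37, adjusted p = 0.894). Its mean at 3.33 µg/g rested on replicate 5. None of these 5 differences held against the spread between libraries once all genes were counted.

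Members varied more between libraries of a group than most genes did, in a comparison not matched for level. Of the 42, 30 averaged under 1 CPM with solvent. Any part of level or of solvent replicate 3 in this spread was not tested. The median biological coefficient of variation in the edgeR fit was 0.634 over the 42 loci and 0.191 over all tested genes, and 32 of the 42 exceeded the 90th percentile of all genes, 0.467. The values ran from 0.263 at LOC107309450 to 1.34 at LOC107316636. LOC107316636, a long non-coding model on chromosome 7, held 0, 0.0444, 0.138, 0 and 0 CPM under solvent, 0.189, 6.07, 6.74, 0.317 and 2.67 CPM at 3.33 µg/g and 0, 7.49, 1.04, 0.21 and 3.82 CPM at 33.3 µg/g, so 33.3 µg/g replicate 1 had 0 counts.

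**Figure D5:**
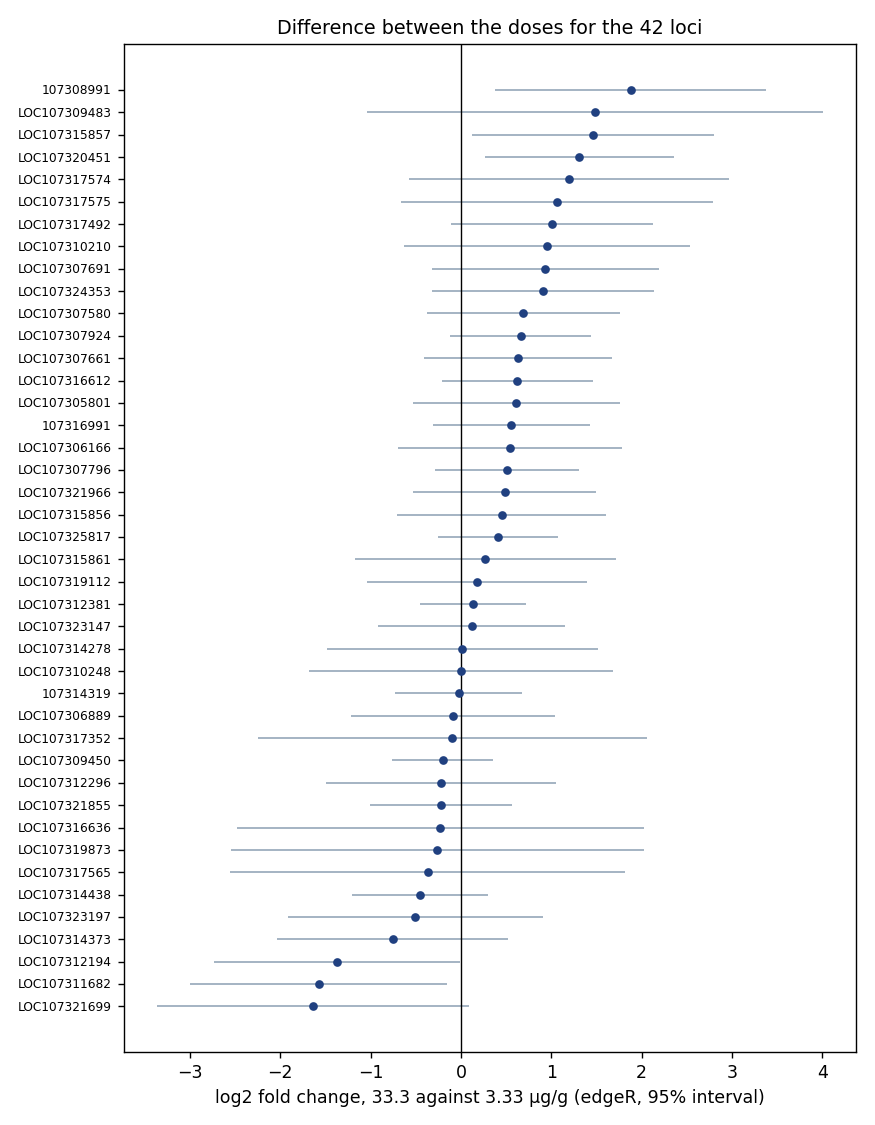
Log2 fold change between 33.3 and 3.33 µg/g (horizontal axis, edgeR estimate with an approximate, unadjusted 95% interval derived from its F statistic) for each of the 42 loci (rows, ordered by the estimate). The estimates run from −1.64 to 1.88 on either side of 0, and no locus passed an adjusted p of 0.05.

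Against solvent, the fitted log2 fold changes had a median of 3.64 at 33.3 µg/g and 3.30 at 3.33 µg/g over the 42 loci, beside −0.00 and 0.00 over all tested genes. In edgeR 27 of the 42 passed as higher at 33.3 µg/g and 25 at 3.33 µg/g, where 0.937% and 1.07% of all tested genes did. The rule used these contrasts, so nothing is read from those counts.

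Within a locus, the deposited table often held several transcript rows. This was so for 12 of the 42 loci, and the rows carry no transcript name. At LOC107319112 the row with the most counts took 76.2% of the counts with solvent, 79.7% at 3.33 µg/g and 83.6% at 33.3 µg/g. LOC107320451 kept its rows in nearly fixed proportion, the larger at 73.2%, 74.8% and 75.2%. At LOC107312296 a row with 0 counts in the solvent group took 7.42% and 7.73% at the doses, and the largest row took 78.6%, 81.9% and 81.9%. At LOC107312381 the larger row went from 59.5% with solvent to 75.9% and 77.3%. These are sums over the 5 libraries of a group and were not tested.

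The loci were set beside 24 genes linked to oestrogen and yolk. Of the 24, 16 had an entry under their symbol and all 16 were tested, while VTG1, VTG2, VTG3, APOV1, ZP3, RTBDN, PIT54 and LSR had none. At 33.3 µg/g 4 of the 16 rose and 0 fell in edgeR, and at 3.33 µg/g 4 rose and 0 fell. Over all tested genes 0.937% and 1.07% passed as higher at these doses. The list was chosen with earlier results of these data known, so it is not independent of them. TCN2, which carries vitamin B12 in plasma, averaged 32.0 ± 11.7 CPM with solvent. It rose to 381 ± 112 CPM at the lower dose (3.50 on the log2 scale, SE 0.34, adjusted p = 6.00e-05) and 346 ± 157 CPM at the higher (3.42, SE 0.34, adjusted p = 9.21e-05). APOB and the retinol carrier gene RBP4 rose at both doses. CUBN, an endocytic receptor, passed at the higher dose (3.72 on the log2 scale, SE 0.74, adjusted p = 0.0201) and not at the lower (3.06, SE 0.73, adjusted p = 0.0518). ZP1 passed at the lower dose (4.13, SE 0.82, adjusted p = 0.0198) and not at the higher (3.37, SE 0.80, adjusted p = 0.0586). In the test between the doses neither gene passed (adjusted p = 0.966 for both). The oestrogen receptor genes ESR1 (log2 fold change −0.46, SE 0.25, adjusted p = 0.561) and ESR2 (1.10, SE 0.43, adjusted p = 0.351) did not pass at 33.3 µg/g. GREB1 and PGR, known as oestrogen targets in mammals, also did not pass at 33.3 µg/g (log2 fold changes 0.43 and −0.18, adjusted p = 0.808 and 0.884).

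Some members lay close to the limits of the rule. On level, LOC107317575 (0.543 CPM), the ID 107308991 (0.573) and LOC107314373 (0.654) were just inside, and LOC107310855 (0.454), LOC107312893 (0.305) and LOC107317313 (0.3) just outside. On the ratio at 3.33 µg/g, LOC107321966 (2.02), LOC107312381 (2.23) and LOC107320451 (2.26) were just inside, and LOC107315490 (1.97), LOC107311494 (1.96) and the ID 107311368 (1.78) just outside. On the ratio at 33.3 µg/g, LOC107311682 (2.21), LOC107312194 (2.24) and LOC107321855 (2.33) were inside, and LOC107311723 (1.996), LOC107317064 (1.96) and LOC107310101 (1.95) outside. Of the 42, 26 had 5 of 5 libraries of both doses above the highest solvent library, 12 had 4 of 5 at 3.33 µg/g and 7 had 4 of 5 at 33.3 µg/g, among them 3 with 4 of 5 at both. With 3 of 5 libraries at a dose, 4 further IDs missed the rule at 3.33 µg/g and 6 at 33.3 µg/g; the highest treated means among them were at LOC107321846 (50.9 CPM) and LOC107315337 (3.82 CPM).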

How the data were processed

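Total RNA of left-lobe liver at embryonic day 9 was sequenced from 15 libraries in 3 groups of 5. The authors deposited estimated counts per transcript row from kallisto, per the submitters' processing notes; its version, index, genome build and strand setting are not stated there. The labels give each library's group. Rows were summed per NCBI gene ID, and CPM was computed on library totals. Names, transcript classes, chromosomes and gene order came from the RefSeq gene table of the Coturnix japonica 2.1 assembly, in which 18900 of 20308 IDs matched. Sequences and products were not used here.

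Counts were rounded and fitted over all 3 groups in edgeR 4.0.16 (R 4.3.3; TMM scaling, filterByExpr, quasi-likelihood test), with Benjamini-Hochberg adjustment over 14508 genes and a threshold of 0.05. TMM factors ran from 0.927 to 1.20. The code was tested on simulated data. DESeq2 1.42.0, other scalings and filters, a replicate block and leaving out libraries were alternatives. Correlations used log2(CPM + 0.5) over the 10 treated libraries. Tables and figures were made in Python 3.11.15 with pandas 2.3.3 and matplotlib 3.10.9. No 2 libraries of a group agreed within sampling noise (30 pairs, chi-square over degrees of freedom at least 26.2). Values in every library were given for the 12 loci highest under treatment and the 8 of largest ratio to solvent, and the 5 smallest p between doses and the IDs nearest each limit were named. Other loci were named for their gene order or correlation after their values were seen. The loci and lists were chosen with earlier results of these data known. Library totals of 21715273 to 54591426 make 1 CPM worth over 20 counts, and lower levels rest on few counts.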

Additional observations from a re-analysis of the deposited data

Results flagged for a closer look

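Of 54 groups of 5 libraries looked at, 10 held a library far from the other 4 by Dixon's test at the 95% level. That level flags about 1 in 20 groups by chance only for independent groups of normally spread values. The groups here are not independent, since the share of counts of the 42 loci includes loci also looked at singly. No excess over chance is therefore read from the 10. In solvent replicate 3 the 42 loci took 0.0608% of the counts, against 0.00994% to 0.0173% in the other solvent libraries. The same library stood apart at 6 single loci. LOC107317565 was at 229.95 CPM there (others 1.09 to 16.4), LOC107319873 at 189 CPM (others 0.337 to 13.9) and LOC107317352 at 61.9 CPM (others 0.168 to 4.57). LOC107314278 was at 4.97 CPM (others 0 to 0.666), LOC107319112 at 2.95 CPM (others 0.0372 to 0.399) and LOC107310248 at 0.736 CPM (others 0 to 0.187). LOC107312296 was at 3.77 CPM in solvent replicate 2 (others 0.529 to 1.29). Among treated libraries, LOC107312194 was at 12.8 CPM in 3.33 µg/g replicate 5 (others 0.815 to 2.53), and LOC107314438 was at 86.2 CPM in 33.3 µg/g replicate 1 (others 44.5 to 52.1).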

How the results depend on the processing

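No median and no fitted change against solvent of the 17 loci followed changed sign under the alternatives run. The rule chose loci above solvent, so the sign against solvent was nearly fixed in advance and nothing is read from it. The difference between doses, not called at any locus, changed sign at 6 of these 17, and the correlation with APOB did at 8 of the 42 loci without 2 libraries. No locus differed between the doses under any alternative run, and the number of genes called between doses was 0 in each edgeR fit and 19 in DESeq2. The median log2 fold change of the loci at 3.33 µg/g against solvent was 2.998 with a filter of at least 1 CPM in 5 libraries. That median covers only the loci that passed this filter, which LOC107317575 and LOC107323147, for example, did not. It was 3.16 without the 2 libraries of low ALB, an alternative chosen after seeing the data. DESeq2 called 275 genes higher at 33.3 µg/g and 407 at 3.33 µg/g against solvent, where edgeR called 136 and 155. With the replicate number as a block the count at 3.33 µg/g was 103, and no locus differed between doses. The numbers do not pair the libraries: of 15 same-numbered pairs 1 had a correlation of deviations over 0.1 (range −0.22 to 0.12), and for 0 libraries was the own number the best match. Asking for 5 of 5 libraries of each dose above solvent left 26 loci. Leaving out 1 library at a time gave 41 to 54 loci, 0 genes and 0 loci called between doses, medians of 0.043 to 0.47 between doses, 3.55 to 3.91 for 33.3 µg/g against solvent and 3.05 to 3.51 for 3.33 µg/g against solvent, and 84 to 158 and 95 to 191 genes called higher than solvent. The lowest of these values between doses came without 33.3 µg/g replicate 2, and the 54 loci came without solvent replicate 2. Without solvent replicate 3 the fitted log2 fold changes of LOC107317565 were 10.47 (33.3 µg/g) and 10.84 (3.33 µg/g), beside 7.76 and 8.13 with it. Of the values of single loci against solvent, 21 moved by more than the SD of log2(CPM + 0.5) over the libraries of that dose. The other 1098 values of single loci include the differences between doses, for which only the call was followed and not the size. The causes were not tested. Depth limits the 6 loci under 1 CPM, whose values rest on few counts.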
